A study of Drosophila melanogaster with 212 samples.

Results

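The genes described here are 36 neuropeptide genes and 4 peptide-processing enzyme genes of Drosophila melanogaster, picked by gene symbol from the 17104 genes of a table of single-cell RNA sequencing. All 40 symbols were found in the table. The cells were octopaminergic/tyraminergic neurons of the brain, which carried a green fluorescent membrane reporter and were sorted one per well. Cells came from females and males of nervy mutants, whose allele the labels do not name, and of the wild type, which makes 4 groups. Where 4 values are given by group below, females stand before males, and the mutant stands before the wild type of each sex. All flies were housed in groups of 15 up to day 6. The driver of the reporter and the animals behind each cell are likewise not given in the sources used here, so each group is 1 sample whatever its number of cells, and nothing below has a replicate check or a test.

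A neuropeptide is cut out of a longer precursor inside dense-core vesicles and is released beside the small transmitters of the same neuron. The prohormone convertase cuts the precursor, a carboxypeptidase trims the cut end, and a hydroxylase and a lyase then turn a terminal glycine into the amide that many fly peptides need for activity. Octopamine and tyramine are made from tyrosine: Tdc2 (tyrosine decarboxylase) makes tyramine, and Tbh (tyramine beta-hydroxylase) turns it into octopamine.

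The table held 54, 51, 56 and 51 cells of the 4 groups. Shallow cells were dropped and, inside a group, near-identical columns were merged, which left 50, 48, 49 and 42 cells, with 20875 to 3045780 counts each and a median of 891082. Values are CPM, the counts of a gene per 1000000 counts of its cell, and a gene is called expressed in a cell at 100 CPM or more. At that level of Tdc2, 175 cells were Tdc2-positive (49, 44, 44 and 38 by group). All 175 also expressed Vmat, the vesicular monoamine transporter, and nSyb, a neuronal vesicle protein, and 161 expressed Tbh. Of the glial markers, Gs2 reached 100 CPM in 72 of them, alrm in 19, Eaat1 in 16, repo in 3, and moody and wrapper in none. The hemocyte marker Hml reached it in none. In females, nvy, the gene named in the genotype, summed to 9.73 CPM in the mutant (95% counting interval 8.76 to 10.8) against 13.3 in the wild type (12.3 to 14.4). In males it summed to 7.25 CPM (6.52 to 8.05) against 16.7 (15.6 to 17.98). Reads of nvy were thus present in cells of both mutant groups.

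Some libraries stood apart. Among the kept columns 19 pairs were near-identical, with correlations of 0.972 to 0.999, and 9 of these pairs joined a mutant to a wild-type cell. In 7 of the 9 both cells were Tdc2-positive, and all 7 showed the same set of peptides in both cells. Among Tdc2-positive cells, 5 expressed 5 or more peptide genes. All 5 were wild-type male cells, with 6, 7, 9, 9 and 11 peptide genes and 6053 to 9027 genes with a read. The summed level of the 6 glial markers in them was 604 to 29922 CPM (median 1246), against 0 to 106639 (median 65.3) in the other 170 cells. Gs2, a glial glutamine synthetase gene, reached 100 CPM in all 5, alrm and Eaat1 in 3 each, repo in 1, and moody and wrapper in none. ChAT and Gad1, markers of cholinergic and GABAergic neurons, reached it in 3 each. Over all 175 Tdc2-positive cells the counts were 72 for Gs2, 7 for ChAT and 21 for Gad1. Values are therefore given with and without these 5 cells where they bear on a count, and their part in the results was not tested. The sex of a cell and its running number in the table nearly coincide: all 50 mutant and 39 of 48 wild-type cells of females fall in the last stretch of 96 numbers, and the cells of males in the first or middle stretch of 96, so sex and running number cannot be told apart.

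Most Tdc2-positive cells expressed at least 1 neuropeptide gene. This was so in all but 17 of 175 (90.3%, exact 95% binomial interval 84.9 to 94.2), and the shares by group were 89.8%, 93.2%, 93.2% and 84.2%. A cell expressed 1 peptide gene in 70 cases, 2 in 64, 3 in 14 and 4 in 5, beside 17 cells with none and the 5 cells just described. Of the 36 peptide genes, 10 were expressed in 5 or more cells, 13 in 1 to 4 cells and 13 in none. Without the 5 multi-peptide cells, 8 genes remained above that count. Exact intervals here and below cover counting error only.

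**Figure D1:**
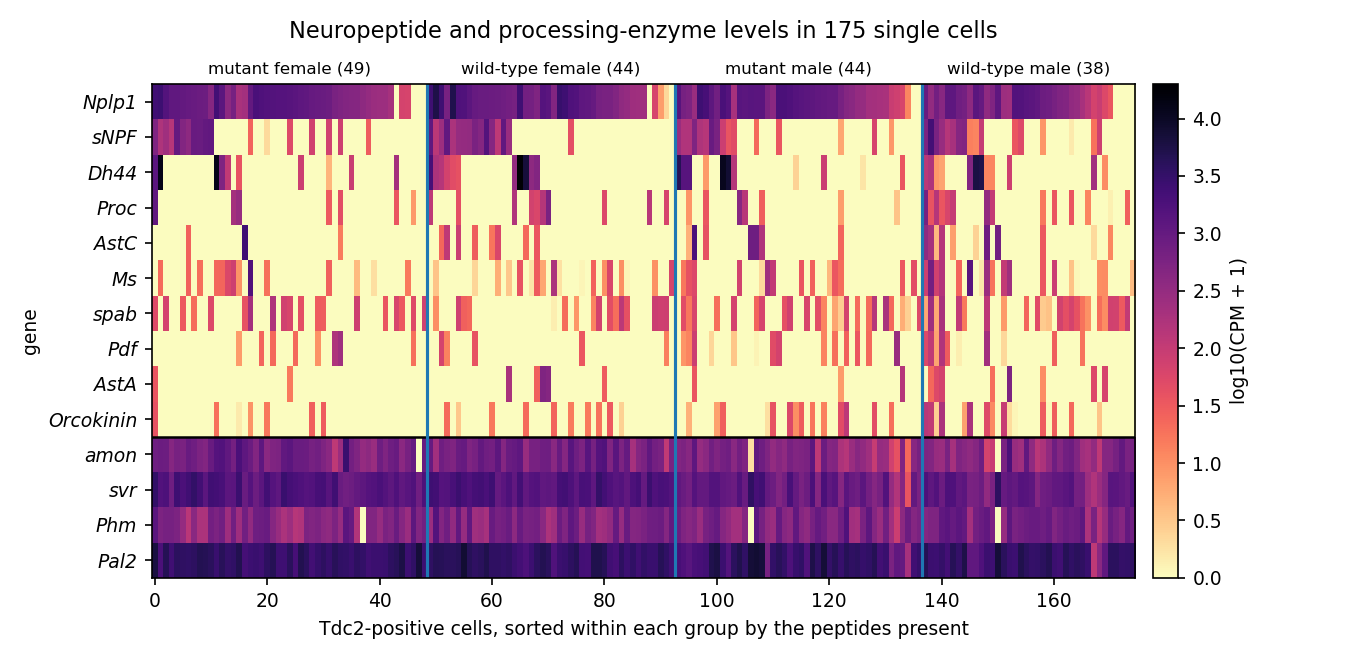
Colour gives log10(CPM + 1) of the 10 peptide genes expressed in 5 or more cells and of the 4 enzymes (rows) in each of the 175 Tdc2-positive cells (columns, by group). Nplp1 and the enzymes run through nearly all columns, sNPF and Dh44 occupy blocks of cells in every group, and the remaining peptides are scattered.

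By amount, the peptide transcripts were dominated by few genes. Scaled by transcript length, Nplp1 made up 36.9% of the mean peptide signal over the 175 cells (327 CPM per kb), Dh44 25.97% (230.4 CPM per kb) and sNPF 6.30% (55.9 CPM per kb), with AstC at 4.71% and Ms at 3.84%. Without the length scaling the first 3 shares were 47.6%, 29.5% and 7.37%. The summed level of all 36 peptide genes ran from 0 to 21450 CPM per cell with a median of 1241, and it reached 1000 CPM in 102 cells. Nplp1 was the highest peptide in 72.6% of cells and Dh44 in 13 cells. sNPF was the highest in fewer than 9 cells, since the count of 9 for it includes any cell without a peptide read.

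Nplp1, the precursor of several amidated peptides (FBgn0035092, 2R from 25032377 to 25040377 on dm6), was expressed in 150 of 175 cells (85.7%, 79.6 to 90.5). By group, that was 43 of 49, 39 of 44, 38 of 44 and 30 of 38 cells. The median level over all cells of a group was 866, 796, 846 and 488 CPM. The groups overlapped, each starting at 0, with highest cells of 2627, 5491, 2513 and 1610 CPM. Wild-type males had the lowest median, and within the first stretch of numbers their median was 350.0 CPM (20 cells) against 656 in the middle stretch (18 cells). Mutant males went the other way, with 1075 CPM in the first stretch (28 cells) and 688 in the middle one (16 cells).

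sNPF, the precursor of short neuropeptide F, a feeding-related peptide that many fly brain neurons release beside another transmitter (FBgn0032840, 2L from 20027915 to 20056373), was expressed in 42 cells. In females they were 11 mutant (22.4%, 11.8 to 36.6) and 15 wild-type cells (34.1%, 20.5 to 49.9), and in males 8 mutant (18.2%, 8.19 to 32.7) and 8 wild-type cells (21.1%, 9.55 to 37.3). The 4 intervals overlap. Among expressing cells the median level was 519, 318, 220.5 and 466 CPM, and the highest cells had 1066, 1516, 936 and 2250 CPM. When the 161 Tdc2-positive cells deep enough were thinned to 190000 counts each, the shares were 18.2%, 39.5%, 16.7% and 21.6%.

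All 42 sNPF cells also expressed Nplp1 and Tbh. Their Tbh level had a median of 19805 CPM against 12449.8 in the cells without sNPF. Within groups, the medians with and without sNPF were 20909 and 13637, 23136 and 13374, 11987 and 12029, and 14748 and 7656 CPM, so the mutant males did not show the difference. VGlut, the vesicular glutamate transporter, had medians of 1479 CPM with sNPF and 868 without, and was higher with sNPF in each group. The sex-determination gene fru, which shapes courtship circuits, was expressed in 66.7% of cells with sNPF (28 of 42) and in 39.8% of cells without it (53 cells). Over the 175 cells, and among 5498 genes compared, log2(CPM + 1) of sNPF ran most closely with CG15537 (Pearson r = 0.68) and CG31814 (r = 0.61), the only genes at 0.6 or more. CG15537 was expressed in 27 of 42 sNPF cells and in 3 of all others, and r within the groups was 0.77, 0.69, 0.59 and 0.70. CG31814 was expressed in 24 and 10 cells, with r of 0.59, 0.65, 0.47 and 0.72. These correlations are descriptions: the cells share libraries, depth and a common scaling.

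Dh44, the diuretic hormone related to vertebrate corticotropin-releasing factor, which also acts in the output of the daily activity rhythm (FBgn0012344, 3R from 9640552 to 9650706), was expressed in 26 cells (14.9%, 9.94 to 21.01). By group they were 6 of 49, 8 of 44, 6 of 44 and 6 of 38 cells. The cells were set apart at 1000, 100 and 20 CPM. In 13 cells Dh44 lay between 1282 and 18889 CPM (median 5862), in 13 between 108.8 and 539 (median 211.5), in 9 between 34.2 and 88.9, and in the remaining 140 below 20. The high range held 3, 3, 5 and 2 cells by group, and the range below it 3, 5, 1 and 4.

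Of the genes set beside these ranges, pdm2, nub and Nos were expressed in more of the high cells than of the lower ones. The POU-domain transcription factor gene pdm2 was expressed in 11 of the 13 high cells, 2 of the 13 lower ones, 1 of 9 and 5 of 140. Its relative nub, another POU-domain gene, was expressed in 6, 1, 0 and 4 of the same sets. Nos, nitric oxide synthase, was expressed in 11 of 13 high cells, 4 of 13 lower ones, 1 of 9 and 11 of 140; it was picked after its values were seen. pdm2 was the only gene with r of 0.6 or more to Dh44 (r = 0.65), and r within the 4 groups was 0.60, 0.57, 0.72 and 0.82. All 13 high cells expressed Nplp1 (median 1440 CPM) and Tbh, and 6 expressed sNPF, beside 11, 11 and 4 of the 13 lower cells. The transcription factor genes ara and salr were each expressed in 0 of the 13 high cells and 1 of the 13 lower ones, against 30 and 23 of the 140 cells below 20 CPM. Of the 26 Dh44 cells, 3 were multi-peptide cells, and all 3 lay in the lower range.

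**Figure D2:**
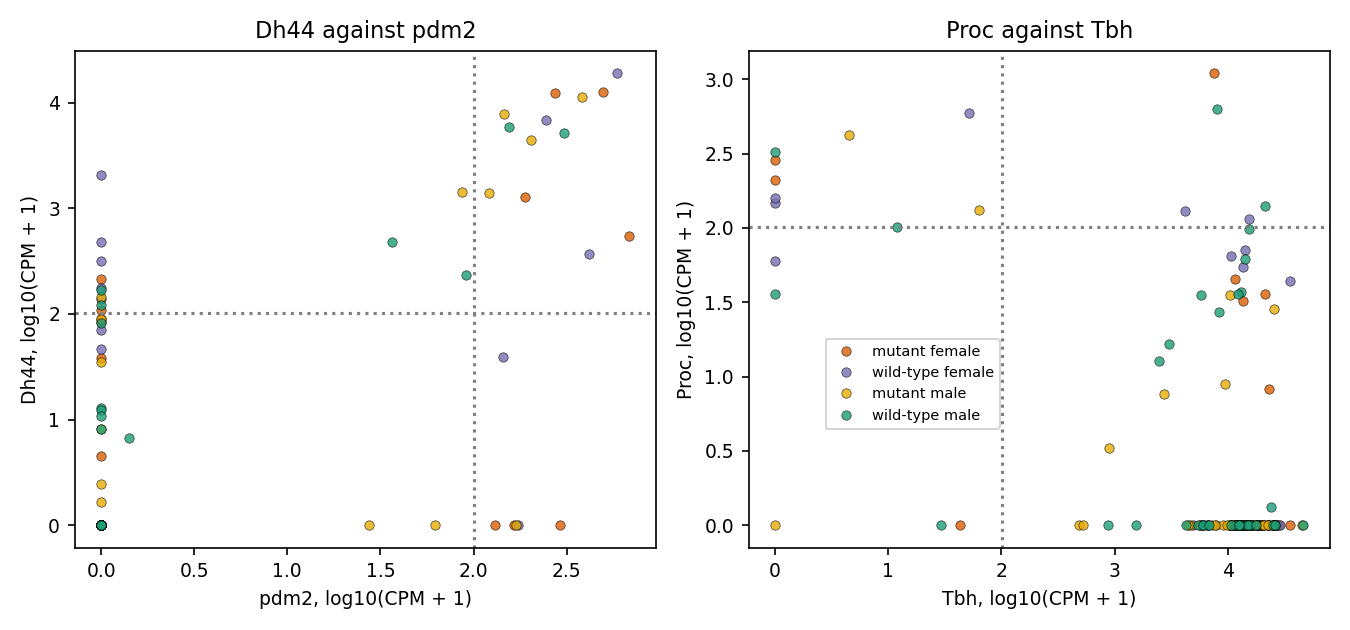
Left, Dh44 against pdm2, and right, Proc against Tbh, both as log10(CPM + 1), with 1 point per Tdc2-positive cell coloured by group and dotted lines at 100 CPM. Of the 13 cells with Dh44 above 1000 CPM, 11 lie right of the pdm2 line, and 9 of the 14 Proc cells lie left of the Tbh line.

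In males, the running number went along with Dh44 and sNPF. Dh44 was expressed in 6 of 28 mutant and 5 of 20 wild-type cells of the first stretch of 96 numbers, and in 0 of 16 and 1 of 18 of the middle stretch. sNPF was expressed in 7 of 28 and 6 of 20 cells of the first stretch and in 1 of 16 and 2 of 18 of the middle one. What the stretches stand for is not given in the sources used here, and their part in these counts was not tested.

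Proc and AstA were each expressed in a larger share of the Tdc2-positive cells with little Tbh, which hold the enzyme for tyramine but little of that for octopamine, than of the others. Proc, the precursor of proctolin, a peptide known for contracting muscle (FBgn0045038, 2L from 7864642 to 7871432), was expressed in 14 cells at 100.4 to 1094 CPM (median 182.95). Of these, 9 had less than 100 CPM of Tbh. Seen from the other side, Proc was expressed in 9 of the 14 Tbh-low cells (64.3%, 35.1 to 87.2) and in 5 of the 161 cells with Tbh (3.11%, 1.02 to 7.10). The median Tbh level was 31.1 CPM in Proc cells and 13586 in the other 161. Tbh-low Proc cells came from all groups, with 2 of 3, 3 of 4, 2 of 3 and 2 of 4 of their Tbh-low cells. Without the multi-peptide cells 12 Proc cells remained, 8 of them Tbh-low.

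AstA, the precursor of allatostatin A, a peptide linked to feeding and sleep in flies (FBgn0015591, 3R from 24760530 to 24765071), was expressed in 5 cells. The 3 wild-type female cells had 518, 439 and 186.3 CPM, the mutant male cell 141.3 and the wild-type male cell 560. Their Tbh was 0, 51.1 and 23136 CPM in the females, 529 in the mutant male and 28.2 in the wild-type male, so that 3 of the 5 were Tbh-low. AstA was thus expressed in 3 of 14 Tbh-low cells (21.4%, 4.66 to 50.8) and in 2 of 161 others (1.24%, 0.151 to 4.42). The same 3 Tbh-low AstA cells had nvy at 100 CPM or more, which was reached in 7 of 14 Tbh-low cells and in none of the 161 with Tbh. Of the 14 Proc cells, 4 reached it.

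Other peptides were also counted in the Tbh-low cells. Nplp1 was expressed in 14 of 14 Tbh-low cells and in 84.5% of the 161 others, and Dh44 in 2 of 14 and 24 of 161. Ms was expressed in 2 of 14 and 8 of 161. AstC, spab and Pdf were expressed in 1 of 14 each, and in 10, 9 and 5 of 161. The Tbh-low cell was the same one for AstC, spab and Pdf, and it was also 1 of the 2 with Ms. It was a wild-type male multi-peptide cell with 7 peptide genes, merged from near-identical columns. Without it, no Tbh-low cell expressed AstC, spab or Pdf. sNPF was expressed in 0 of 14, with an exact upper limit of 23.2%, against 42 of 161 (26.1%, 19.5 to 33.6). These differences were not tested.

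AstC, the precursor of allatostatin C, named for stopping juvenile hormone synthesis in other insects (FBgn0032336, 2L from 11076165 to 11081399), was expressed in 11 cells (1, 1, 4 and 5 by group). The mutant female cell had 2430 CPM and the wild-type female cell 114.96. The mutant males had 1859, 786, 781 and 158.3 CPM, and the wild-type males 787, 712, 345, 201.4 and 142.6. Of the 5 wild-type male cells 4 were multi-peptide cells, and the fifth, at 712 CPM, was near-identical to the mutant male cell at 781 CPM. With all cells of near-identical pairs left out, 6 of the 11 AstC cells remained. Gad1, the GABA-synthesizing enzyme, was expressed in 6 of 11 AstC cells and 15 of 164 others, and in 3 of 7 once the multi-peptide cells were left out.

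The other 4 peptides of the main set were expressed in 5 to 10 cells each, some of them multi-peptide cells. Ms, the precursor of myosuppressin, which relaxes visceral muscle (FBgn0011581, 3R from 24341551 to 24343825), was expressed in 10 cells (1, 1, 2 and 6 by group) at 103.6 to 1667 CPM, and in 6 without the multi-peptide cells. spab (FBgn0033358, 2R from 8963164 to 8968184) was expressed in 10 cells (2, 1, 2 and 5) at 103.4 to 250.6 CPM, and in 7 without them. Pdf, the precursor of pigment-dispersing factor, a transmitter of the circadian clock neurons (FBgn0023178, 3R from 26455462 to 26456141), was expressed in 6 cells (2, 0, 1 and 3) at 107.7 to 287.8 CPM, and in 3 without them. Orcokinin, whose peptide family was found in crustaceans (FBgn0034935, 2R from 23946959 to 23948616), was expressed in 5 cells (0, 0, 1 and 4) at 107.7 to 189.7 CPM, and in 1 without them.

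Further peptides were limited to 1 to 4 cells each. A single mutant female cell held CCHa1, a peptide of gut and brain, at 3509 CPM together with Ms at 1667 and spab at 208.5, and a wild-type male multi-peptide cell held CCHa1 at 119.4. NPF, neuropeptide F, a feeding and reward peptide, reached 1350 CPM in 1 wild-type male cell. Dh31, a calcitonin-like diuretic hormone, and Dsk, a cholecystokinin-like satiety peptide, were each expressed in 4 cells, 3 of them multi-peptide cells, and Crz, corazonin, in 3 cells, 2 of them such cells. amn, a gene known from memory mutants, was expressed in 2 cells, and Mip, Tk, Lk, Ilp2, Hug, SIFa and ITP in 1 cell each at 111.2 to 437 CPM. The only Tk cell and the only Lk cell were multi-peptide cells. Lk shares 93.0% of its exon bases with an antisense gene, SIFa 21.1% with Start1, ITP 6.32% with CG4622 and amn 3.54% with Hers. The use of strand is not stated, so reads of such partners cannot be told apart.

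No Tdc2-positive cell expressed CCHa2, FMRFa, Ilp3, Ilp5, Ilp7, CCAP, Eh, ETH, CNMa, Burs, Pburs, Akh or Ptth. For each, 0 of 175 cells leaves an exact upper limit of 2.09% of cells at 100 CPM. ETH, Burs and Pburs, which act in molting and wing expansion, had no read in these cells. Counted at any level, reads were more widespread. amn had a read in 78.9% of cells with a median of 11.4 CPM over all 175. Reads of spab were found in 82 cells, of SIFa in 77, of Ms in 64 and of ITP in 52. Many of these levels were low: 20 CPM was reached by amn in 71 cells, spab in 59, Ms in 35, ITP in 13 and SIFa in 4.

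Peptides occurred together mainly through Nplp1. The most frequent content was Nplp1 alone in 63 cells (21, 15, 15 and 12 by group), then sNPF with Nplp1 in 25 (9, 9, 4 and 3), no peptide in 17, Dh44 with Nplp1 in 12 (3, 4, 3 and 2), and sNPF, Dh44 and Nplp1 in 6 (1, 2, 3 and 0). Nplp1 with AstC alone and Nplp1 with Proc alone were found in 5 cells each, and Nplp1 with Ms alone and with spab alone in 4 each. Of 630 possible pairs of peptide genes, 103 were seen in at least 1 cell, but 34 without the 5 multi-peptide cells. Of the 10 pairs seen in 5 or more cells, 8 included Nplp1.

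Nplp1 was expressed in 150 of 175 cells, so a pair with it cannot rise far above the product of both shares. That such pairs lay near their products therefore says little. For sNPF and AstC the count with Nplp1 was the largest possible, since every cell with either gene also expressed Nplp1. Several pairs without Nplp1 were seen more often than their products. sNPF and Nplp1 were together in 42 cells, where the product of both shares gives 36, Dh44 and Nplp1 in 24 against 22.3, Proc and Nplp1 in 13 against 12.0, and AstC and Nplp1 in 11 against 9.43. sNPF and Dh44 were together in 10 cells against 6.24, and in 8 against 5.28 without the multi-peptide cells. sNPF and AstC were together in 5 against 2.64, and in 2 against 1.61 without those cells. Ms and spab were together in 4 against 0.57, and in 1 against 0.25 without those cells. Dh44 and Proc were together in 4 against 2.08, and Proc and AstA in 2 against 0.40. These products are a yardstick for description and no test.

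**Figure D3:**
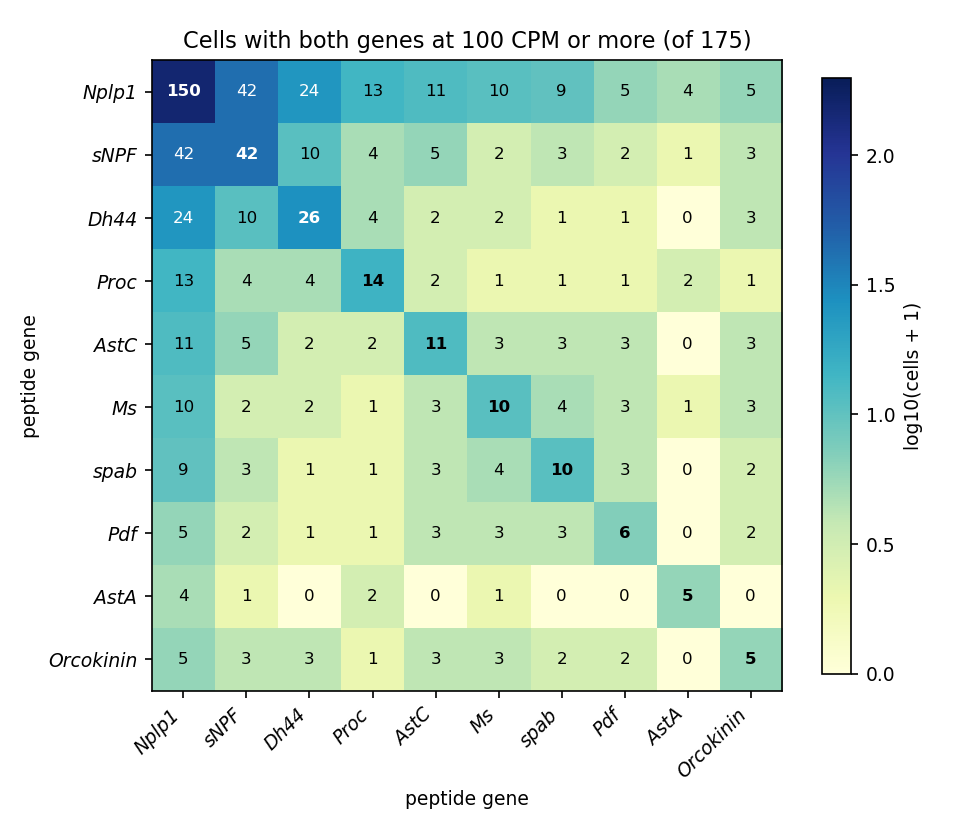
Each square gives the number of the 175 Tdc2-positive cells in which both peptide genes reached 100 CPM (diagonal: the gene itself), coloured by log10(cells + 1). Every sNPF cell is also an Nplp1 cell (42 of 42), and sNPF with Dh44 (10 cells) is the most frequent pair without Nplp1.

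The 17 cells with none of the 36 peptide genes at 100 CPM were 5, 3, 3 and 6 cells by group. Gpb5, a hormone subunit gene outside the 36, was expressed in 8 of them. All 17 expressed Tbh, at 1532 to 24809 CPM, and VGlut. The homeodomain gene ara was expressed in 9 of 17 and the zinc finger gene salr in 11 of 17, against 22 and 14 of all cells with a peptide. In the 25 cells without Nplp1, which include these 17, ara was expressed in 12 and salr in 14, against 19 and 11 of 150. pdm2 and NPFR, the receptor of NPF, were expressed in 0 of those 25 cells and in 19 and 24 of 150. Total counts had a median of 658222 in cells without a peptide and 908299 in the others, and the part of depth in the difference was not tested.

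The processing enzymes were present almost everywhere. amon, the prohormone convertase related to mammalian PC2 (FBgn0023179, 3R from 26697697 to 26714159), was expressed in 166 of 175 cells. svr, a carboxypeptidase of the D type (FBgn0004648, X from 499281 to 504319), was expressed in all but 1. Phm, the hydroxylase of amidation (FBgn0283509, 2R from 23985175 to 23988455), was expressed in 97.7%. Pal2, a lyase of amidation (FBgn0262728, 2R from 23688077 to 23690838), was expressed in all 175. All 4 had a read in all but 4 cells, which lacked reads of amon (2 cells) or Phm (3 cells).

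Per length, the enzyme levels had medians of 142 CPM per kb for amon, 429 for svr, 348 for Phm and 1461 for Pal2. Pal2 shares 25.7% of its exon bases with CG30183, which lies on the opposite strand, and svr 9.52% with antisense genes. Enzyme levels showed no steady course with the number of peptide genes in a cell. Across cells with 0, 1, 2 and 3 or more peptide genes, the median of amon was 596, 546, 558 and 614 CPM, of svr 1281, 1299, 1491 and 1318, of Phm 499, 572, 561 and 528, and of Pal2 3139, 3238, 3681 and 3014. The medians of the 17 cells without a peptide gene thus lay close to those of the others.

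For amon and svr, medians differed more between the sexes than between the genotypes, which was not so for Phm. The median of amon was 718 and 701 CPM in the female groups and 439.7 and 439.5 CPM in the male groups. For svr it was 1576, 1766, 984 and 1066 CPM. Phm had 499, 597, 449.9 and 767 CPM, and Pal2 3434, 3541, 3138 and 3209. The cells of all groups overlapped widely for each enzyme. In group sums, amon had a male over female log2 ratio of -0.89 in wild type and -0.73 in mutants, and svr -0.61 and -0.63; no enzyme reached a 2-fold difference in any of the 4 comparisons. Among wild-type cells of the first stretch of 96 numbers, which include 8 female cells, 4 of them Tdc2-low, the male over female ratio was -0.72 for amon and 0.08 for svr. In the Tdc2-positive cells of that stretch, 4 female and 20 male, the medians of amon were 1143 and 459 CPM. For svr they were 1566 and 1185.5 CPM. Tdc2-low wells had a median of 355 CPM of svr, against 1339 in Tdc2-positive cells, and the parts of these wells and of the running number were not tested.

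**Figure D4:**
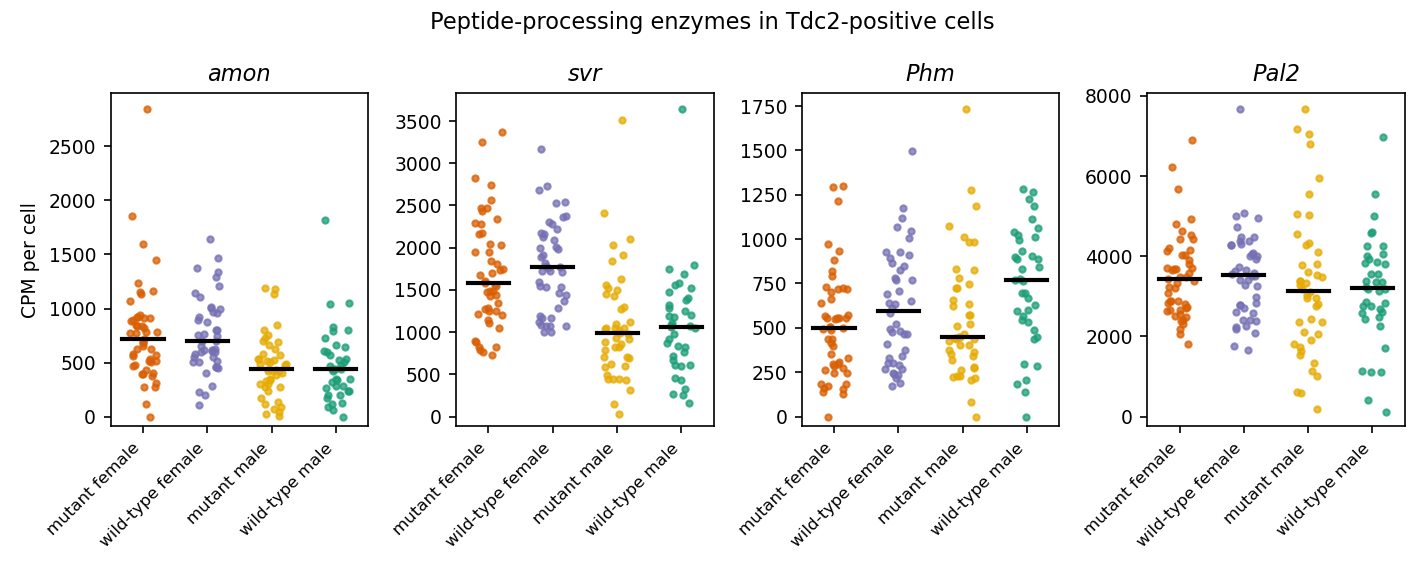
CPM per cell of amon, svr, Phm and Pal2 in Tdc2-positive cells of each group, with 1 point per cell and a bar at the median; each panel has its own scale. Both female groups have higher medians than both male groups for amon (718 and 701 against 439.7 and 439.5 CPM) and svr (1576 and 1766 against 984 and 1066), while the points overlap.

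Of the listed genes around peptide processing, the convertase chaperone 7B2 was expressed in all but 1 of 175 cells (median 2427 CPM), and IA-2, a membrane protein of dense-core vesicles, in all 175 (median 9654 CPM). Cadps, which primes such vesicles for release, was expressed in 88% of cells. Pal1, the other lyase, was expressed in 78, and the furins Fur1 and Fur2 in 39 and 95. Rab2, Rab3, unc-104, Syt7 and Syt1, genes of vesicle traffic and release, were expressed in 96.6% to 99.4% of cells, and Sytalpha and Sytbeta in 37.7% and in 72%. dimm, the transcription factor known for promoting the peptidergic state, was expressed in no cell, with a read in 2 cells and at most 9.08 CPM. Of the 14 other peptide genes listed, Gpb5, a glycoprotein hormone subunit, was expressed in 83 cells, whereas Gpa2, which encodes its partner subunit, was expressed in none and reached 20 CPM in 3. Capa and Ilp6 were expressed in 1 cell each and the rest in none.

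To compare genotypes and sexes, counts were summed over all kept cells of a group, where fewer expressing cells and less RNA per cell cannot be told apart, and log2 ratios of (CPM + 1) were formed. Of the 40 members, 16 averaged 20 CPM or more across the 4 groups and entered this comparison. A gene can enter through the group in which it is high, so counts over these 16 support nothing by themselves. Called here means a difference of at least 2-fold. In females, 6 of 16 members were called between mutant and wild type, against 4.64% of the 5585 genes compared: CCHa1, AstC and Pdf were higher in mutants, and Orcokinin, Dh31 and sNPF were lower. In males, 4 of 16 were called, against 2.42% of all genes: AstC was higher in mutants, and CCHa1, Ms and Proc were lower. Both shares lie above the background, but each rests on few cells, as the values below show. The median ratio over the 16 members was -0.09 in females and -0.32 in males, beside 0.00 and 0.01 over all genes.

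AstC was the only member called in 1 direction in both sexes, which 0.466% of all genes were. Its sums by group were 59.8, 16.95, 127.7 and 61.9 CPM (log2 ratios of 1.76 for females and 1.03 for males). A single cell held 99.5% of the mutant female counts. With the top cell of every group left out, the female ratio turned to -3.07 and the male ratio became 0.65. Proc was lower in mutants of both sexes, with 16.98, 33.3, 9.62 and 37.5 CPM by group (-0.93 and -1.86). Without the top cells the ratios of Proc were -0.86 and -1.95, in Tdc2-positive cells alone -1.004 and -2.20, and as a mean of per-cell CPM 0.14 and -1.32, so that the female direction depended on how cells were weighted. Without the multi-peptide cells, Proc was expressed in 2 mutant and 2 wild-type male cells, in place of 2 and 4. In Tdc2-positive cells without them, AstC was the only member called in 1 direction in both sexes, and Proc was not. sNPF had 106.9, 272.3, 94.8 and 129.4 CPM (-1.34 and -0.45), and in Tdc2-positive cells alone -0.73 and -0.58, which is under 2-fold.

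The other calls in females ended without a single cell or in Tdc2-positive cells alone. CCHa1 had 112.1, 6.09, 2.58 and 8.16 CPM, a ratio of 3.996 in females and -1.35 in males, and 1 cell held all counts of the mutant females. As a mean of per-cell CPM the male ratio of CCHa1 was -0.31. Pdf had 35.5, 13.2, 22.1 and 27.8 CPM (1.37 and -0.32), and 0.67 and -0.55 in Tdc2-positive cells. Orcokinin had 2.94, 52.4, 19.7 and 29.2 CPM (-3.76 and -0.54), but 2.98, 4.63, 9.13 and 19.7 in Tdc2-positive cells. Dh31 had 3.90, 47.2, 22.4 and 33.3 CPM (-3.30 and -0.55), and in Tdc2-positive cells its female ratio turned to 2.20. Ms had 89.5, 83.9, 32.6 and 76.6 CPM (0.09 and -1.21). In Tdc2-positive cells its ratios were 2.67 in females, or 0.65 once the top cells were also left out, and -1.21 in males, or -1.61. The male call of Ms thus stood in these settings. Without the multi-peptide cells, however, Ms was expressed in 2 mutant and 2 wild-type male cells, in place of 2 and 6. Dh44 had 217.9, 348, 568 and 308 CPM (-0.67 and 0.88) and Nplp1 804, 1011, 945 and 620.3 CPM (-0.33 and 0.61). Both were lower in mutant females and higher in mutant males, each by less than 2-fold. With cells of near-identical pairs left out, the female ratio of Dh44 was past 2-fold at -1.96, and as a mean of per-cell CPM it was -0.17. Among males of the first stretch of numbers, the ratio of Nplp1 was 1.01. The single cell with the most Dh44 held 55.3% to 72.6% of a group's Dh44 counts.

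**Figure D5:**
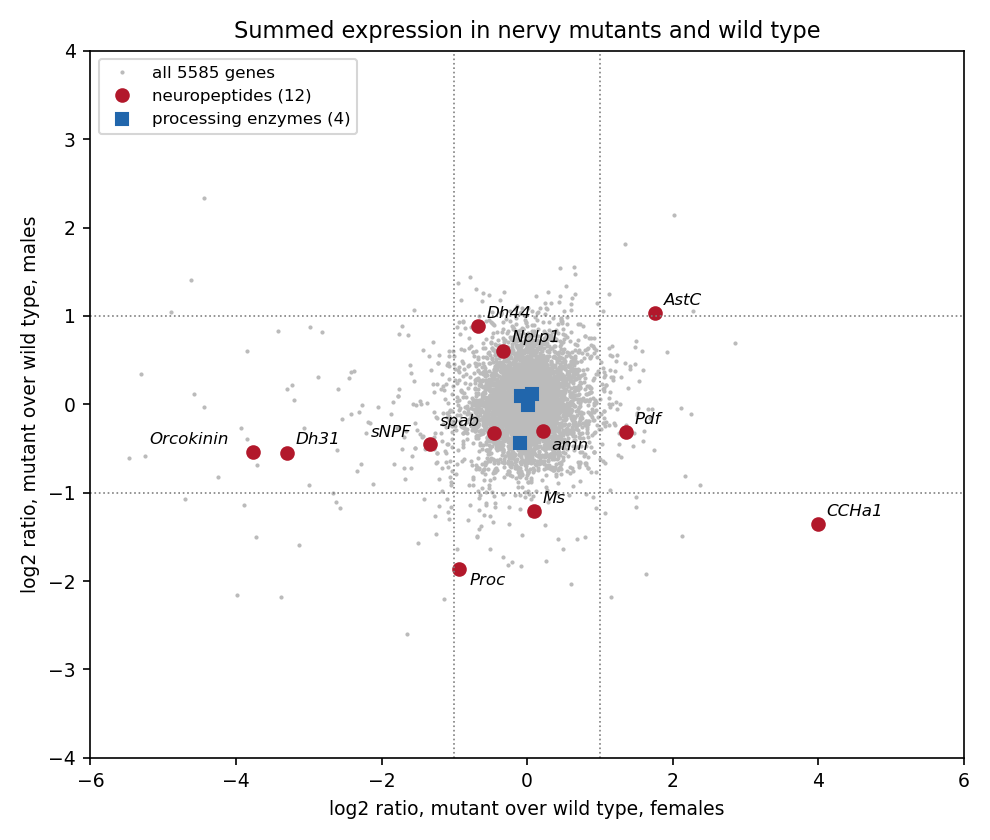
Log2 ratio of summed CPM, mutant over wild type, in females (horizontal) and males (vertical) for 5585 genes (grey), the 12 peptide genes (red) and the 4 enzymes (blue) averaging 20 CPM or more; dotted lines mark 2-fold. The enzymes lie near the centre, and of the members only AstC passes both lines in 1 direction, while CCHa1 passes them in opposite directions; with the top cell of every group left out, the female ratio of AstC turns to -3.07.

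Between males and females, 3 of 16 members were called in wild type against 7.79% of all genes, with AstC and Pdf higher and sNPF lower in males. In mutants 7 of 16 were called against 7.20% of all genes: AstC, Orcokinin, Dh44, spab and Dh31 were higher, and CCHa1 and Ms lower, in males. AstC was the only member called in 1 direction in both genotypes (1.81 and 1.08), which 1.68% of all genes were. With cells of near-identical pairs left out, these ratios of AstC were 0.59 and 0.47. In Tdc2-positive cells they were 2.22 and 0.99, and without the top cells 2.05 and 5.77. The last value left out the cell that held 99.5% of the mutant female counts. The wild-type ratio of Pdf was 0.78 in place of 1.02 with cells of near-identical pairs left out. It was larger in Tdc2-positive cells (1.84), without the top cells (1.496) and as a mean of per-cell CPM (1.54). Among wild-type cells of the first stretch of 96 numbers the ratio of Pdf was -0.45. In Tdc2-positive cells, sNPF had -0.56 in place of -1.07 in wild type, and in mutants spab turned from 1.02 to -0.13 and Dh31 went from 2.26 to 0.77. Without the top cells, the mutant ratios of CCHa1, Ms and Dh44 were 0.44, -0.59 and 0.87 in place of -4.98, -1.43 and 1.38. Orcokinin in mutants had 2.40 over all cells and 1.35 in Tdc2-positive cells. These ratios share their groups with the genotype comparison, and sex cannot be told apart from the running number. The medians over members were -0.06 in wild type and -0.05 in mutants, beside 0.01 and 0.02 over all genes.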

How the data were processed

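RNA of single sorted cells was sequenced with 75-base paired-end reads, from 24 pools of 12 libraries made with the Nextera XT kit, per the labels' protocols. The deposited table held, per the file headers, exon read counts from HOMER (analyzeRepeats.pl, dm6, raw, 1 transcript per gene); the submitters' processing notes also name FastQC and edgeR. The aligner and the use of strand were not given in the sources used here. Every deposited value was a multiple of 0.5 and 56.2% of the nonzero ones were whole. The deposited values, counted by HOMER per the file headers, were therefore treated like expected counts, although the plan had assumed whole counts; values were rounded only for intervals and thinning. The 40 members and all lists were chosen with earlier results of these data known.

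Cells with fewer than 10000 counts or 500 genes with a read were left out (13 columns). Columns of 1 group with a correlation of at least 0.95 over 7500 genes (mean of at least 5 CPM) were averaged and counted as 1 cell; pairs across genotypes were kept. CPM used each cell's total over the listed genes. Doublets were not called: cells were sorted 1 per well, but whether a well held RNA of more than 1 cell was not tested. Peptides at 100 CPM in at least 5 Tdc2-positive cells were described one by one, with up to 5 genes of highest correlation named at r of 0.6 or more; other named partner genes came from a fixed list. Per-length values used the transcript length in the table, and exon overlaps came from the BDGP6 annotation of the same assembly. Poisson and Clopper-Pearson 95% intervals and the limit of 3 counts behind a 0 cover counting error only, since amplified reads are not independent molecules. The fold-change step was tested on simulated data. Alternatives covered the threshold, the cells kept, the scaling, the pseudocount (1 against 5), the minimum mean, near-identical pairs and running numbers. Python 3.11.15, numpy 2.4.6, scipy 1.17.1, pandas 2.3.3 and matplotlib 3.10.9 were used, and R 4.3.3 with edgeR 4.0.16 for TMM factors.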

Additional observations from a re-analysis of the deposited data

Results flagged for a closer look

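CCHa1 moved in opposite directions between the genotypes in females and males. Mutant against wild type, its log2 ratio was 3.996 for females and -1.35 for males; the difference between them was not tested. In mutant females 1 cell held all CCHa1 counts, in wild-type females 1 Tdc2-low well did, and each male group had reads in 2 wells.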

How the results depend on the processing

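Counts of peptide genes, shares and pairs moved with the CPM threshold. At 20 CPM, 23 peptide genes were in 5 or more cells, 99.4% of cells had a peptide, the median was 3 per cell and 94 pairs were frequent; at 500 CPM these values were 4, 66.9%, 1 and 2. With all kept cells, 53 pairs were frequent. The median per cell was 1 in cells with both Tdc2 and Tbh and without multi-peptide cells, and 1.5 without cells at 100 CPM of repo.

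The count of members called between genotypes in both sexes (1, AstC) became 0 with a mean of per-cell CPM, without each group's top cell, with a pseudocount of 5 and with a minimum of 100 CPM, 2 in Tdc2-positive cells and with males of the first 96 running numbers (AstC and Proc in both), 3 without near-identical pairs and 6 with a minimum of 1 CPM. The count between sexes became 0 with a mean of per-cell CPM, with a minimum of 100 CPM, without near-identical pairs and in Tdc2-positive cells with or without the multi-peptide cells, and 4 with a minimum of 1 CPM. The median ratio in females became 0.0031 with a mean of per-cell CPM, -0.36 without top cells and -0.46 with a minimum of 1 CPM. In males it became 0.0294 without top cells, -0.44 and 0.0886 with minima of 1 and 100 CPM, -0.53 without near-identical pairs, 0.26 with males of the middle 96 numbers and 0.0542 in Tdc2-positive cells without the multi-peptide cells. The cause was not tested, beyond fewer genes or cells where the setting itself leaves them out. The other 47 values stayed within their limits, but with males of the middle 96 numbers the 1 member called between genotypes was Proc, and the male ratio of AstC was 0.73. No paired analysis was possible because the labels tie no cell to an animal and number cells only within a group. Depth limits the shares: cells of few counts can miss a low peptide, 14 Tdc2-positive cells were too shallow to thin, and 14 Tbh-low cells leave wide intervals.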

Other observations

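The 14 kept wells with less than 100 CPM of Tdc2 entered the group sums above but none of the counts of Tdc2-positive cells. They held more peptide genes, with a median of 5 and at most 18 at 100 CPM or more. Ms was expressed in 11 of them, sNPF in 8, Nplp1, Dsk, spab and Orcokinin in 7 each, and Dh44 in 1. Akh, the adipokinetic hormone, absent from Tdc2-positive cells at that level, was expressed in 5. Of the glial markers, Gs2 was expressed in all 14 (median 10801 CPM), alrm and Eaat1 in 12 each, wrapper in 5, moody in 3 and repo in 2. Gad1 was expressed in 12 and ChAT in 8. Of the 14 wells, 4 were wild-type female wells numbered 1 to 96.

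The other main peptides had no gene with r of 0.6 or more. The highest were NetB, a netrin guidance cue, for Nplp1 (0.57) and Lim1, a LIM-homeodomain gene, for Proc (0.54), both named after their values were seen. NetB was expressed in 69 of 150 cells with Nplp1 and in 0 of 25 without, and Lim1 in 9 of 14 cells with Proc and 7 of 161 without.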
